A study of Mus musculus with 6 samples.

Results

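The 10 genes described here are the 5 subunits of the transcription factor NF-kB (Rela, Relb, Rel, Nfkb1 and Nfkb2), 3 genes whose proteins restrain or tune it (Nfkbia, Nfkbiz and Tnfaip3), the cytokine gene Tnf and the receptor gene Tlr2. They were found by symbol in 6 tables of read counts, where they made up 10 of 25793 genes. All 10 reached a level of 1 CPM in at least 1 library, as did 14810 genes in all. Levels are in CPM (counts-per-million) of a library size adjusted by the trimmed mean of M values (TMM).

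RNA came from mouse embryonic fibroblasts, primary cultures made from embryos of embryonic day E13.5 after matings of Sptbn1+/- and SMAD3+/- mice. All cultures were grown with 10% fetal bovine serum, and the labels name no other treatment. The genotypes were double heterozygous (β2SP+/- ; SMAD3+/-), SMAD3-/-, SMAD3+/-, β2SP-/-, β2SP+/- and wild type (WT), where the mutants carry germline knockout alleles, β2SP is beta-2-spectrin, the product of Sptbn1, and SMAD3 is a transcription factor of the TGF-β pathway. There was 1 library per genotype, and the labels do not say how many embryos or which sex and litter went into it. Differences of genotype, embryo and preparation therefore cannot be told apart, and each genotype name below stands for the library labelled with it.

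Libraries held 6856680 to 31125055 counts on genes. Of the uniquely placed reads, 81.2% lay on genes in the double heterozygous library and 80.1% in the SMAD3-/- library, against 40.9 to 43.3% in the other 4. Structural and nuclear RNAs such as Rn18s and Malat1 summed to 2578 CPM in the double heterozygote and 11561 CPM in SMAD3-/-, against 103579 to 123787 CPM in the other 4, so both libraries stood apart in their RNA make-up. Sptbn1, listed under its older symbol Spnb2, was at 48.9% of its WT level in the double heterozygote, 54.3% in β2SP-/- and 75.5% in β2SP+/-, but also at 71.99% in SMAD3-/-, which carries no labelled Sptbn1 mutation, and at 110% in SMAD3+/-. Smad3 ran against the labels, at 381% of the WT level in the double heterozygote, 199% in SMAD3-/- and 149% in SMAD3+/-, and the sources used here do not say which exons the mutant alleles lack. Xist stood at 2747 CPM in SMAD3+/- and at 0.0637 to 16.3 CPM in the other 5 libraries. Ddx3y, also a sex-linked gene, ran the other way, at 0.388 CPM in SMAD3+/- and 118 to 188 CPM in the other 5. Every comparison with SMAD3+/- carries this difference. The 14 fibroblast markers were detected in every library and summed to 21800 to 62960 CPM. Macrophage and leukocyte markers summed to 1771 CPM in the double heterozygote, 68.4 in SMAD3-/-, 2577 in SMAD3+/-, 1776 in β2SP-/- and 1696 in β2SP+/-, against 2608 CPM in WT, and the T cell marker Cd3e had at most 1 count in any library.

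NF-kB proteins act as pairs. In resting cells the IkB proteins, above all IkBα, the product of Nfkbia, hold them in the cytoplasm until signals such as TNF or bacterial lipoproteins bound by TLR2 activate the IkB kinase. NF-kB then switches on inflammatory genes together with Nfkbia, Nfkbiz and Tnfaip3, whose products feed back on the pathway, and with Nfkb1, Nfkb2, Rel and Relb themselves.

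Because many of these genes are themselves known targets of NF-kB, the DNA ahead of their starts is shown first. RefSeq (GRCm38.p6) gave 10 promoter entries for 7 of the 10 genes, with none for Nfkb1, Relb or Nfkbiz. In the 250 bases before the start, 5 of these 7 genes, in 7 of the 10 entries, held the κB consensus, the letters bound by most NF-kB pairs, searched on both strands. For scale, 7.25% of 32851 promoter windows of the same length held it. Capitals mark matches to the consensus, overlapping ones joined. The stretch ahead of Nfkbia lies at chr12:55492648-55492897, with its match 29 bases before the start, and that of Rel at chr11:23770971-23771219, with its match 92 bases before the start. The Tnf stretch lies at chr17:35202008-35202257 and held no match. All 3 are on the minus strand and wholly upstream of the gene.
Nfkbia: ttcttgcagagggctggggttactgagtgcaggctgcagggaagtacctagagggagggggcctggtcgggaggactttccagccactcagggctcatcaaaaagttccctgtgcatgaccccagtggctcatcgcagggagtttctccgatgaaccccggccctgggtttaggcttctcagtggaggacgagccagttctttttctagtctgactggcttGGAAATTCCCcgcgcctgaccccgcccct
Rel: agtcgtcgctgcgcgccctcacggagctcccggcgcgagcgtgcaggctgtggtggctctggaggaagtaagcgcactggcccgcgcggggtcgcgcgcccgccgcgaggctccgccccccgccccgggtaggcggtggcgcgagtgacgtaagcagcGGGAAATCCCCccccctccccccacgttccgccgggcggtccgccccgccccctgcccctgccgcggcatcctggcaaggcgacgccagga
Tnf: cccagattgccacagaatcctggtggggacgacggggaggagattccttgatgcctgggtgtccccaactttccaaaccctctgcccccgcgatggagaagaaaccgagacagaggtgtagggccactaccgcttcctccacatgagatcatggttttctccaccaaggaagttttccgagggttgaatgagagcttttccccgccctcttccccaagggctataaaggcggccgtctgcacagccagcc

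For Nfkb2, Tnfaip3 and Tlr2 the first match is shown with its flanks, because the annotated starts of these genes differ between RefSeq and GENCODE. The Nfkb2 window (chr19:46304688-46304717, plus strand) lay inside the gene as GENCODE annotates it, with the match 39 bases before the RefSeq start. A second match to the consensus, GGGGCTTTCC, lay 11 bases before that start. The Tnfaip3 window (chr10:19015516-19015545, minus strand) also lay inside the GENCODE gene, with the match 125 bases before the RefSeq start. Another match, GGAAATCCCC, lay 12 bases before that start. The Tlr2 window (chr3:83841762-83841791, minus strand) crossed the GENCODE start of the gene.
Nfkb2: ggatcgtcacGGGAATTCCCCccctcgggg
Tnfaip3: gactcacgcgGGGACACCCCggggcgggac
Tlr2: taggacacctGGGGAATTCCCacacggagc

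A match is a string of letters and not a shown binding site. The window of Rela, like that of Tnf, held none, which says only that these letters are not in it.

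In the double heterozygous library 9 of the 10 genes were higher than in WT and Rel was lower. A gene is counted as higher or lower here when the exact 95% interval of the ratio of scaled counts lies wholly beyond 1.5-fold, a rule that covers counting error only and compares libraries, not genotypes. By that rule 21.6% of the 14810 genes were higher and 19.1% lower in the double heterozygote, 40.7% in all. Of those counted, 53.1% were higher, and 40.0% with scaling to the upper quartile. The median log2 ratio was 2.94 over the 10 genes and 0.07 over all genes. In SMAD3-/- the set split, with 4 genes higher and 4 lower, where 24.2% of all genes were higher and 25.2% lower. In the other 3 mutant libraries Tnfaip3 alone was counted, lower in β2SP+/- and SMAD3+/-. Of all genes 1.2% were lower in β2SP+/- and 4.46% in SMAD3+/-. All 10 ratios were below 1 in β2SP+/-, with a median log2 ratio of -0.47 against -0.01 over all genes.

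**Figure D1:**
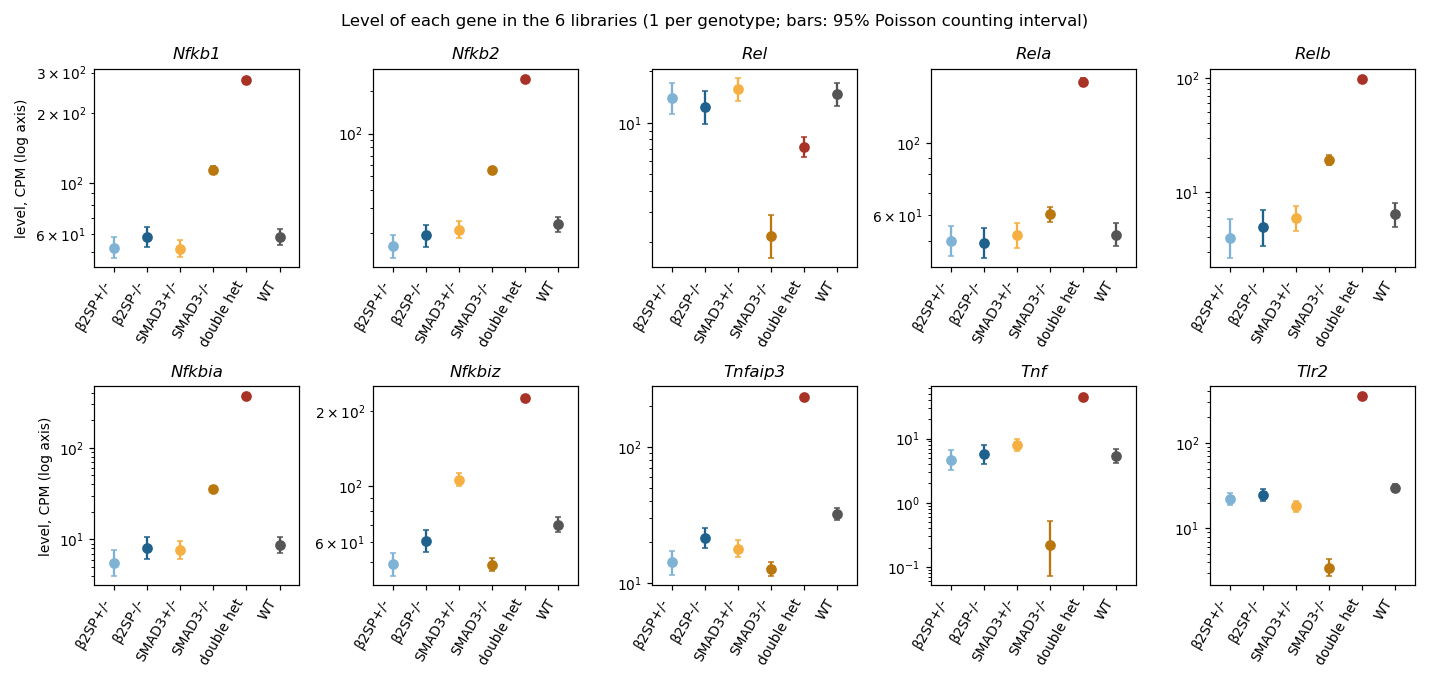
Level in CPM (log axis, with its own range in each panel) of the 10 genes in the 6 libraries, 1 point per library, with bars for the 95% Poisson counting interval (double het: β2SP+/- ; SMAD3+/-). The double heterozygote is the highest library in 9 panels, and Rel is the exception, at 7.26 CPM against 14.8 CPM in WT.

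Rela encodes the subunit with the main transactivation domain of the classical pathway. It stood at 154 CPM in the double heterozygote, 60.3 in SMAD3-/-, 51.9 in SMAD3+/-, 49.3 in β2SP-/- and 49.9 in β2SP+/-, against 52.2 CPM in WT. The ratio of the double heterozygote to WT was 2.96 (2.71 to 3.22), the smallest among the 9 higher genes. The SMAD3-/- ratio of 1.15 (1.05 to 1.27) was within 1.5-fold. Among the other 4 libraries neighbours in the order of levels did not differ beyond counting error, and their whole spread was 1.06-fold. Rela was thus the member with the narrowest range over the 6 libraries, 3.13-fold.

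Relb encodes the partner of the Nfkb2 product in the non-canonical pathway. Its level was 97.3 CPM in the double heterozygote, 19.1 in SMAD3-/-, 5.91 in SMAD3+/-, 4.93 in β2SP-/- and 3.98 in β2SP+/-, against 6.37 CPM in WT. Both the double heterozygote, at 15.3-fold (12.1 to 19.6), and SMAD3-/-, at 2.99-fold (2.33 to 3.90), were higher than WT. The other 4 libraries held 27 to 72 counts each and did not differ from their neighbours beyond counting error. Against WT itself β2SP+/- had a ratio of 0.624 (0.385 to 0.984), an interval that left out 1.

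Nfkb2 encodes a precursor that is itself inhibitory until it is processed to a DNA-binding subunit. It reached 243 CPM in the double heterozygote, 55.1 in SMAD3-/-, 21.0 in SMAD3+/-, 19.1 in β2SP-/- and 16.0 in β2SP+/-, against 23.0 CPM in WT. The order of the libraries was that of Relb, and again the double heterozygote, at 10.6-fold (9.34 to 12.0), and SMAD3-/-, at 2.40-fold (2.10 to 2.75), were higher than WT. Nfkb2 overlaps Psd on the opposite strand, and the sources used here do not give the strand setting of the counting. Psd had 8.15 CPM in the double heterozygote and 3.54 CPM in WT.

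Nfkb1 encodes the other precursor, whose product pairs with the Rela protein. It was at 279 CPM in the double heterozygote, 113 in SMAD3-/-, 51.8 in SMAD3+/-, 58.3 in β2SP-/- and 52.3 in β2SP+/-, against 58.2 CPM in WT. Ratios to WT were 4.80 (4.43 to 5.20) in the double heterozygote and 1.95 (1.79 to 2.13) in SMAD3-/-, and the other 4 libraries lay within 1.12-fold of each other.

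Rel encodes c-Rel, a subunit known for its high expression in lymphoid and myeloid cells. It had 7.26 CPM in the double heterozygote, 2.18 in SMAD3-/-, 15.8 in SMAD3+/-, 12.4 in β2SP-/- and 14.0 in β2SP+/-, against 14.8 CPM in WT. It was the one subunit lower than WT in both libraries in which Nfkb1, Nfkb2 and Relb were higher, by 2.03-fold (1.66 to 2.50) in the double heterozygote and 6.79-fold (4.91 to 9.53) in SMAD3-/-. Leukocyte markers were lower for 10 of 18 measured and higher for 1 in the double heterozygote, where 19.1% of all genes were lower. In SMAD3-/- 18 of 18 were lower, where 25.2% of all genes were lower. The part of these markers in the result was not tested. In such bulk cultures fewer cells of a type and less RNA per cell cannot be told apart. The other 4 libraries did not differ from their neighbours beyond counting error.

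Levels were also set side by side per kilobase of exon within each library, a measure that needs no scaling between libraries. The make-up of the subunits shifted from Rela towards Nfkb2 and Relb in the double heterozygote and SMAD3-/-. The shares depend on the lengths used, those of merged exons, such as 12.061 kb for Nfkb1 and 3.072 kb for Rela. In WT Nfkb1 was 1.12 times Rela by counts and 0.284 times per kilobase. Rela made up 32.9% of the 5 subunits in the double heterozygote, 42.4% in SMAD3-/- and 57.4 to 60.2% in the other 3 mutants, against 55.8% in WT. The share of Nfkb2 was 34.8% in the double heterozygote, 26.0% in SMAD3-/- and 16.5% in WT, and that of Relb was 16.4% in the double heterozygote, 10.6% in SMAD3-/- and 5.38% in WT. Rel made up 0.638% in the double heterozygote and 0.630% in SMAD3-/-, against 6.50% in WT. Nfkb1 moved least, between 14.6 and 20.3% over the 6 libraries. In the double heterozygote the Nfkb2 and Rela levels per kilobase were thus almost equal, with a ratio of 1.06 (1.02 to 1.10), against 0.295 (0.254 to 0.342) in WT.

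**Figure D2:**
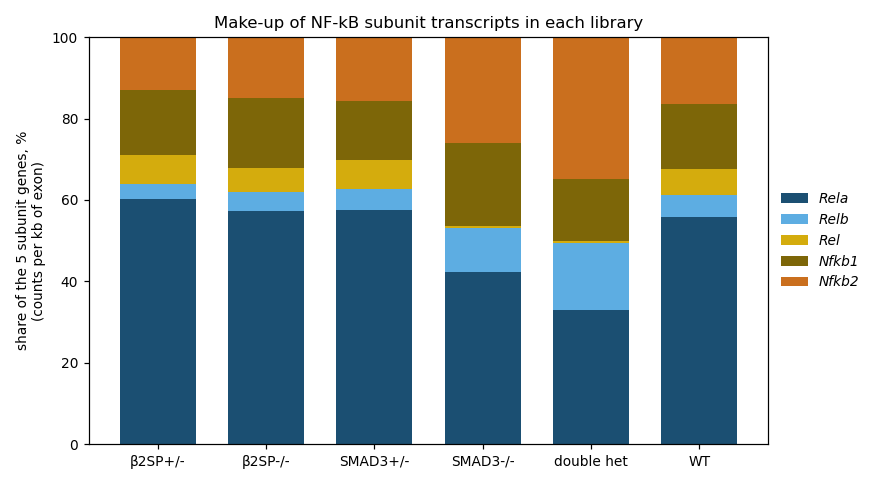
Share in percent of each subunit gene among the 5, from counts per kilobase of merged exons, in 1 stacked bar per library. Rela takes 32.9% in the double heterozygote, 42.4% in SMAD3-/- and 57.4 to 60.2% in the other 3 mutants, against 55.8% in WT.

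Nfkbia, the gene of IkBα and an early target of NF-kB, had the largest ratio of the set. It stood at 366 CPM in the double heterozygote, 35.8 in SMAD3-/-, 7.66 in SMAD3+/-, 8.07 in β2SP-/- and 5.60 in β2SP+/-, against 8.67 CPM in WT. The double heterozygote was 42.3-fold (34.6 to 52.1) and SMAD3-/- 4.13-fold (3.35 to 5.15) above WT, from 11504 counts in the double heterozygote, 807 in SMAD3-/- and 98 in WT. The remaining 3 mutants and WT did not differ from their neighbours in level beyond counting error. Against WT itself β2SP+/- had a ratio of 0.645 (0.432 to 0.948), an interval that left out 1. Per kilobase of merged exons, Nfkbia was 4.53 times the level of Rela in the double heterozygote and 1.13 times in SMAD3-/-, against 0.317 times in WT. By that measure Nfkbia passed Rela in the double heterozygote and SMAD3-/- alone among the 6 libraries. By counts without length the ratio was 2.37 in the double heterozygote and 0.595 in SMAD3-/-, against 0.166 in WT.

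Tnfaip3, which encodes a ubiquitin-editing enzyme that shuts off signalling from TNF and Toll-like receptors, did not follow Nfkbia. Its level was 233 CPM in the double heterozygote, 12.7 in SMAD3-/-, 18.0 in SMAD3+/-, 21.7 in β2SP-/- and 14.3 in β2SP+/-, against 32.4 CPM in WT. WT was therefore the second highest library. The double heterozygote was 7.20-fold (6.48 to 8.02) higher than WT, while SMAD3-/- was 2.55-fold (2.18 to 2.99) and β2SP+/- 2.27-fold (1.81 to 2.87) lower. SMAD3+/- was 1.80-fold lower (1.502 to 2.15), a call that ended when DESeq2 size factors or the upper quartile set the scale. In β2SP-/- the ratio was 1.49-fold lower (1.23 to 1.82), which did not pass the rule. Per kilobase, Tnfaip3 was 0.142 times Nfkbia in the double heterozygote and 0.0790 times in SMAD3-/-, against 0.832 times in WT.

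Nfkbiz encodes IkBζ, a nuclear IkB protein that helps NF-kB induce a second wave of genes. It stood at 225 CPM in the double heterozygote, 48.7 in SMAD3-/-, 106.5 in SMAD3+/-, 60.7 in β2SP-/- and 48.9 in β2SP+/-, against 70.4 CPM in WT. The double heterozygote was 3.20-fold (2.98 to 3.45) above WT. SMAD3+/- was next in level, at 1.51-fold (1.38 to 1.66), whose interval crossed 1.5-fold, and Nfkbiz was with Tnf and Rel 1 of 3 genes with a ratio above 1 there. SMAD3-/- was 1.45-fold (1.32 to 1.59) below WT, also short of the rule.

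Tnf encodes the cytokine TNF, both a trigger and a product of NF-kB. It had 44.3 CPM in the double heterozygote, 0.222 in SMAD3-/-, 7.95 in SMAD3+/-, 5.68 in β2SP-/- and 4.71 in β2SP+/-, against 5.40 CPM in WT. The SMAD3-/- value rests on 5 counts, and its ratio was 24.3-fold (9.86 to 77.5) lower than WT. The double heterozygote was 8.20-fold (6.35 to 10.8) higher. SMAD3+/- at 1.47-fold (1.04 to 2.09), β2SP-/- and β2SP+/- were not counted. With a range of 199-fold over the 6 libraries Tnf varied most of the 10 genes.

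Tlr2 encodes a receptor for bacterial lipoproteins that fibroblasts and macrophages both carry. Its level was 352 CPM in the double heterozygote, 3.46 in SMAD3-/-, 18.0 in SMAD3+/-, 24.5 in β2SP-/- and 22.2 in β2SP+/-, against 29.9 CPM in WT. The double heterozygote was 11.8-fold (10.6 to 13.2) higher and SMAD3-/- 8.63-fold (6.73 to 11.2) lower than WT, so the libraries in which Nfkb1, Nfkb2, Relb and Nfkbia were both higher lay on opposite sides of WT for Tlr2 and Tnf. SMAD3+/- was 1.66-fold (1.38 to 1.99) lower, short of the rule. Per kilobase Tlr2 was 2.32 times Rela in the double heterozygote and 0.0586 times in SMAD3-/-, against 0.584 times in WT.

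**Figure D3:**
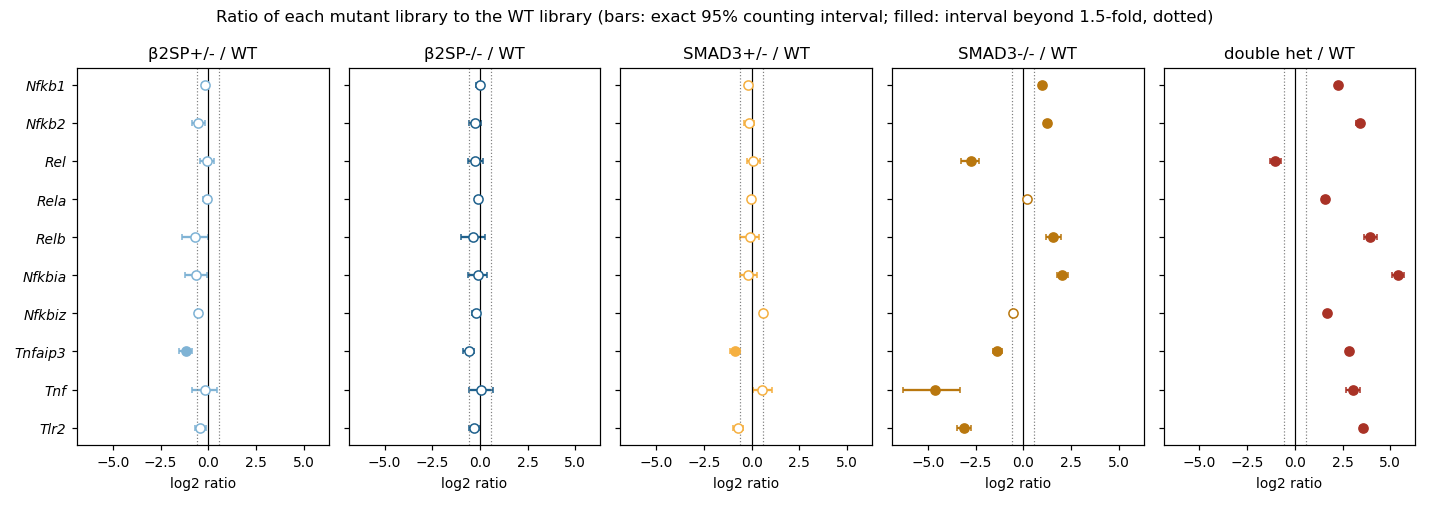
Log2 ratio of each mutant library to WT for the 10 genes, with bars for the exact 95% counting interval, dotted lines at 1.5-fold and filled points where the whole interval lies beyond them. All 10 points are filled in the double heterozygote and 8 in SMAD3-/-, against 1 in SMAD3+/-, 0 in β2SP-/- and 1 in β2SP+/-. Of all genes 40.7% were counted in the double heterozygote, 49.4% in SMAD3-/-, 6.1% in SMAD3+/-, 1.06% in β2SP-/- and 1.83% in β2SP+/-.

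In the β2SP libraries few of these genes passed the rule. In β2SP+/- 0 were higher and 1 lower, where 0.635% of all genes were higher and 1.2% lower, 1.83% in all. All 10 ratios were below 1, from 0.441 for Tnfaip3 to 0.956 for Rela, with a median log2 ratio of -0.47 against -0.01 over all genes. The intervals of Nfkb2, Relb, Nfkbia, Nfkbiz, Tnfaip3 and Tlr2 left out a ratio of 1. In β2SP-/- 0 of the 10 were counted, where 1.06% of all genes were (0.648% higher and 0.412% lower). The members had a median log2 ratio of -0.23, and the intervals of Nfkbiz, Tnfaip3 and Tlr2, all lower, left out a ratio of 1. Between β2SP-/- and β2SP+/- 0 of the 10 genes and 1.3% of all genes were counted (0.925% higher and 0.378% lower), and 8 of the 10 ratios were above 1. In SMAD3+/-, whose Smad3 level ran against its label, 0 were higher and 1 lower, where 1.64% of all genes were higher and 4.46% lower, 6.1% in all. The median log2 ratio of the members there was -0.12.

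SMAD3-/- had 4 of 10 genes higher (Nfkb1, Nfkb2, Relb and Nfkbia), where 24.2% of all genes were higher. It had 4 lower (Rel, Tnfaip3, Tnf and Tlr2), where 25.2% of all were lower. The share of members counted, 8 of 10, stood beside 49.4% of all genes, and the median log2 ratio was -0.16 over the members and 0.06 over all genes. Against SMAD3+/-, 4 were higher and 4 lower, where 22.6% of all genes were higher and 22.3% lower, 44.9% in all. Of those counted 50.4% were higher, and 39.6% with the upper quartile. In that pair Nfkbiz, at 2.19-fold lower (2.01 to 2.38), took the place of Tnfaip3, at 1.42-fold lower (1.17 to 1.71). The allele fit described below assumes an equal log2 effect per mutant allele, and its residual spread is not one between replicates. If the interval is widened by that spread, Rel, Tnf and Tlr2 remain counted in SMAD3-/- against WT. Smad3 itself ran against the label of this library.

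For the double heterozygote the comparison with each single heterozygote gave 9 genes higher and Rel lower. Against SMAD3+/-, 22.5% of all genes were higher and 19.0% lower (41.5% in all), and against β2SP+/- 21.1% were higher and 18.3% lower (39.4% in all). Of the genes counted, 54.3% against SMAD3+/- and 53.6% against β2SP+/- were higher, and with the upper quartile 41.7% against SMAD3+/- and 39.4% against β2SP+/-. Nfkbia was 47.9-fold (38.4 to 60.5) above SMAD3+/- and 65.5-fold (47.7 to 92.6) above β2SP+/-. Among the 9 higher genes Nfkbiz had the smallest ratio to SMAD3+/-, 2.12 (1.99 to 2.26). These comparisons share the double heterozygous library with that against WT. With the interval widened by the residual spread of the allele fit, Nfkb2, Relb, Nfkbia, Tnfaip3, Tnf and Tlr2 remain counted against WT, 6 of 10. Nfkb1, Rel, Rela and Nfkbiz do not.

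The double heterozygote and SMAD3-/- are the 2 libraries with over 80% of unique reads on genes. They still differed, with 0.827% of reads on several genes in the double heterozygote and 0.0251% in SMAD3-/-. Structural and nuclear RNAs summed to 2578 CPM in the double heterozygote and 11561 CPM in SMAD3-/-. Setting the 2 libraries against each other, a comparison added after the data were seen, gave 10 of 10 genes higher in the double heterozygote. There 23.4% of all genes were higher and 19.8% lower, 43.1% in all. The ratios were 2.46 (2.36 to 2.57) for Nfkb1, 2.56 (2.41 to 2.72) for Rela and 3.34 (2.44 to 4.64) for Rel. The non-canonical subunits had 4.41 (4.15 to 4.69) for Nfkb2 and 5.11 (4.62 to 5.66) for Relb, intervals that overlap that of Rel. Among the regulators Nfkbiz was 4.63-fold (4.35 to 4.94), Nfkbia 10.2-fold (9.52 to 11.0) and Tnfaip3 18.3-fold (16.3 to 20.7) higher. Tlr2 at 102-fold (81.3 to 129) and Tnf at 199-fold (85.2 to 615) had the largest ratios. All 18 measured leukocyte markers were higher in the double heterozygote in this pair as well, with sums of 1771 CPM against 68.4 CPM in SMAD3-/-, and their part in the result was not tested.

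The double heterozygote was also set against the level that the single heterozygotes would give if their log2 differences from WT added up. A departure counted where its 95% counting interval lay wholly past 1.5-fold. By that measure 9 of 10 genes were above the sum, where 18.5% of all genes were above and 16.5% below. It was 6.19 ± 0.32 on the log2 scale for Nfkbia (counting SE), 4.86 ± 0.20 for Tnfaip3, 4.71 ± 0.18 for Tlr2 and 4.69 ± 0.37 for Relb. Nfkb2 followed with 4.04 ± 0.19. Tnf had 2.65 ± 0.35, Nfkb1 2.58 ± 0.11, Rela 1.63 ± 0.12 and Nfkbiz 1.61 ± 0.11. The departure of Rel, -1.05 ± 0.24, was the only negative value and was not counted. This sum carries the difference in RNA make-up between the double heterozygote and the other 3 libraries in it. It also carries the difference of SMAD3+/- in Xist and Ddx3y.

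Over all 6 libraries, counts were modelled on the number of mutant alleles each label gives, using the quasi-likelihood test of edgeR, which leaves 3 residual degrees of freedom. At a Benjamini-Hochberg adjusted p of 0.05, 0 of 14085 genes (0.0%) and 0 of the 10 were called for either gene. Without adjustment, 21 genes and 0 members were under 0.05 for Sptbn1, and 3404 genes and 1 member for SMAD3. That member was Rel, at -1.25 ± 0.46 on the log2 scale per labelled SMAD3 allele (SE; edgeR adjusted p = 0.190). It was lower than WT in 2 of the 3 libraries with such an allele. With DESeq2's Wald test 2049 genes (14.5%) were called for SMAD3, Rel among them at -1.32 (adjusted p = 0.0309), and 0 for Sptbn1. Over all settings of this fit the adjusted p of Rel for SMAD3 ran from 0.0309 to 0.903, the last without the double heterozygote and SMAD3-/-. The common biological coefficient of variation was 0.467 over 6 libraries and 0.112 over the other 4.

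The wider pathway was described with 4 lists. In the double heterozygote 31 of 36 target genes were higher and 0 lower, where 21.6% of all genes were higher and 19.1% lower, with a median log2 ratio of 3.02 against 0.07 over all genes. The chemokine gene Cxcl5 reached 4351 CPM against 41.2 CPM in WT, 106-fold (96.4 to 116). Lcn2, an iron-binding defence protein, was 69.5-fold (53.4 to 92.3) higher, and Nos2, the inducible nitric oxide synthase, 120-fold (62.9 to 262). Csf3, the granulocyte colony-stimulating factor, had 1188 counts against 1 count in WT, a ratio of 428 (76.6 to 16907).

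Inhibitors and other IkB proteins were higher for 8 of 16 and lower for 1 in the double heterozygote, beside the same 21.6% and 19.1% of all genes. Zc3h12a, whose product degrades inflammatory mRNAs, was 26.6-fold (20.5 to 35.1), Nfkbie, the gene of IkBε, 17.7-fold (13.8 to 22.9) and Tnip1, a partner of the Tnfaip3 protein, 10.1-fold (9.05 to 11.3) higher. Of the adaptors and kinases 14 of 27 were higher and 1 lower, among them Ikbke, an IkB kinase-related kinase, at 7.47-fold (6.33 to 8.88), Traf1 at 7.57-fold (5.15 to 11.6) and the ubiquitin ligase gene Birc3 at 5.76-fold (5.08 to 6.57). Of the receptors 5 of 13 were higher and 3 lower, the lower share being near that of all genes. Tnfrsf1b, a TNF receptor, was 3.69-fold (3.33 to 4.09) and Ltbr, the lymphotoxin receptor, 3.43-fold (3.10 to 3.81) higher, while Tlr1, the partner of TLR2 in ligand binding, was 3.69-fold (2.59 to 5.28) lower. Leukocyte markers in this library were higher for 1 gene (Cd52) and lower for 10 of 18, summing to 1771 CPM against 2608 CPM in WT, and fibroblast markers summed to 62960 CPM against 38275 CPM in WT.

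In SMAD3-/- the target list leaned the other way, with 4 of 36 higher and 19 lower, where 24.2% of all genes were higher and 25.2% lower. Its median log2 ratio was -1.16, and that of all genes 0.06. The protease gene Mmp9 was 342-fold (173 to 794) lower, the acute-phase gene Saa3 336-fold (162 to 837) and the chemokine gene Ccl5 296-fold (126 to 915). Il1b, the interleukin-1β gene, had 0 counts against 86 in WT. It was at least 45.4-fold lower by the exact 95% interval, and 57.1-fold lower with a floor of 3 counts in place of 0. Of the receptors 1 of 13 was higher and 8 lower, among them Tlr1 with 3 counts, 51.1-fold lower (16.9 to 253), the co-receptor Cd14, 24.6-fold lower (20.4 to 30.01), and Tlr3, 17.5-fold lower (11.7 to 27.4). Of the adaptors and kinases 5 of 27 were higher and 6 lower, and of the inhibitors 1 of 16 was higher and 3 lower, shares at or under those of all genes. The inhibitors included Zfp36, 4.82-fold lower (4.26 to 5.46). All 18 leukocyte markers were lower, at a median log2 ratio of -5.60, and their part in these results was not tested.

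**Figure D4:**
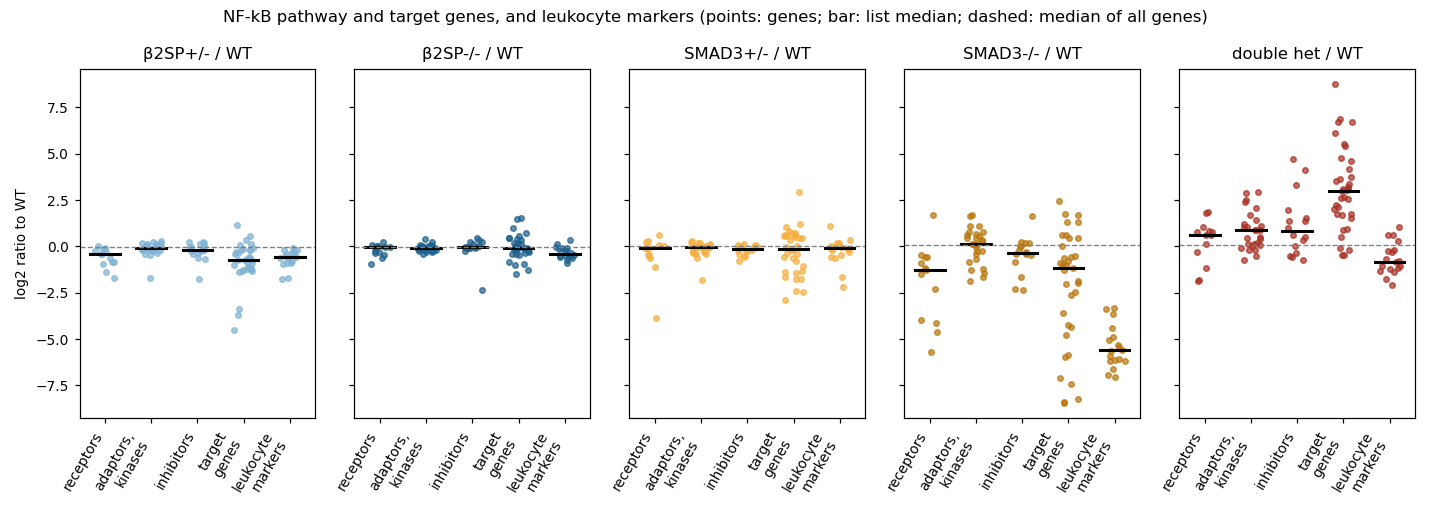
Log2 ratio to WT of each gene (points) in 4 NF-kB lists and in the leukocyte markers, with black bars for list medians and a dashed line for the median of all genes, in 1 panel per mutant library. Genes at or under 3 counts in both libraries have no point. In the double heterozygote the median of the target genes is 3.02 and that of the leukocyte markers -0.81, and in SMAD3-/- they are -1.16 and -5.60.

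In β2SP+/- 12 of 36 target genes were lower and 0 higher, where 1.2% of all genes were lower. Their median log2 ratio was -0.73, and that of all genes -0.01. Beyond 2-fold, 7 were lower. Il1b and Il1a, the interleukin-1 genes, had 4 counts each and were lower by ratios of 12.9 (4.87 to 48.5) for Il1b and 10.4 (3.87 to 39.1) for Il1a. The matrix protease gene Mmp3 was 2.48-fold (2.32 to 2.64) lower. The receptor Cd14 was 2.60-fold (2.31 to 2.94) lower, and 6 of 18 leukocyte markers were lower in the same library, with sums of 1696 CPM against 2608 CPM in WT. Their part in the result was not tested. In β2SP-/- 3 target genes were lower and 0 higher, where 0.412% of all genes were lower. They were Mmp3 at 1.995-fold (1.88 to 2.12), Cxcl10 at 2.83-fold (1.69 to 4.997) and Cxcl5 at 1.94-fold (1.61 to 2.36). Beyond 2-fold, 0 were counted. SMAD3+/- had 3 target genes higher and 8 lower, where 1.64% of all genes were higher and 4.46% lower, with Mmp9 5.46-fold (4.74 to 6.30) and Mmp3 3.36-fold (3.16 to 3.57) lower. Of the adaptors and kinases 0 of 27, and of the inhibitors 0 of 16, were counted in any of these 3 libraries.

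**Figure D5:**
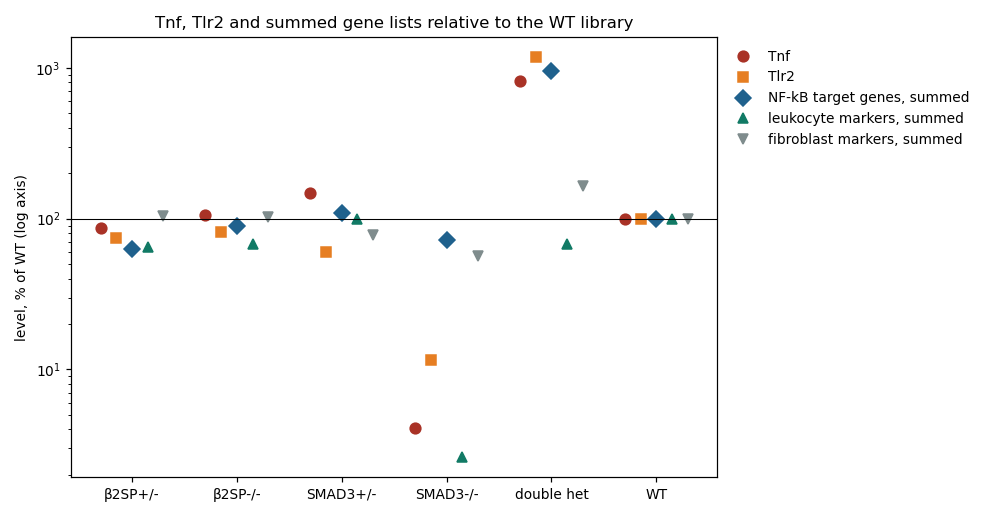
Level relative to WT, in percent on a log axis, of Tnf, Tlr2 and the summed CPM of 3 gene lists, 1 point per library. Tnf, Tlr2 and the target genes lie above WT in the double heterozygote, where leukocyte markers sum to 1771 CPM against 2608 CPM in WT, and Tnf, Tlr2 and leukocyte markers all lie below WT in SMAD3-/-.

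The genes whose pattern over the 6 libraries was most like those of the 4 most variable members were found by the root mean square distance of their log2 levels, each centred on its mean over the libraries. For Tnf they were Epas1 (0.302), Gpr84 (0.345) and Ch25h (0.384). Epas1, a hypoxia-inducible factor, had 141 CPM in the double heterozygote and 1.29 CPM in SMAD3-/-, against 14.2 CPM in WT. For Tlr2 they were C1ra (0.262), Epas1 (0.327) and Lum (0.412). Those of Nfkbia were Rnd1 (0.400), Slc29a1 (0.498) and its fellow member Relb (0.537). For Relb they were Nfkb2 (0.203), Pcx (0.276) and Slc29a1 (0.286). These distances share 6 libraries, of which the double heterozygote and SMAD3-/- set most of the range.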

How the data were processed

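Libraries from 6 genotypes, 1 each, were made with the Illumina TruSeq RNA kit and sequenced on an Illumina HiSeq, per the labels' protocols. The deposited files hold raw read counts per gene, 1 table per library. The submitters' processing notes list FastQC, Trimmomatic, TopHat2 2.0.10, HTSeq, DESeq2 and mouse build mm9. Strand setting and annotation are not given in the sources used here. Of 25793 genes 5828 were at 0 in all 6 libraries, and 5 summary lines per table were left out of library sizes.

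Counts were scaled by TMM (edgeR 4.0.16, R 4.3.3). Each pair of libraries was compared by the ratio of scaled counts with an exact Clopper-Pearson 95% interval (scipy 1.17.1), for the genes that reached 1 CPM in any library. Such intervals, and the floor of 3 counts used for a library at 0, cover counting error only. A gene at or under that floor in both libraries has no ratio. The allele fit used edgeR's robust quasi-likelihood test over 14085 genes that reached 1 CPM in 2 or more libraries, with Benjamini-Hochberg adjusted p-values, and DESeq2 1.42.0 as an alternative. Departures from additivity had 0.5 counts added. Lengths for levels per kilobase, and gene positions, come from merged exons of GENCODE M21 (GRCm38), a build other than that of the deposited counts. The edgeR fit was tested on simulated counts with effects per Sptbn1 allele alone. Effects per SMAD3 allele and the DESeq2 fit were not tested in this way. Other scalings, filters, fold thresholds and a wider interval were tried.

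All 10 members are described in every library. From each list, up to 4 counted genes per comparison with WT were eligible to be named, those whose interval bound nearest to 1-fold lay farthest from it. Pattern likeness was taken for the 4 members with the widest range and the 3 nearest genes each, on log2(CPM + 0.5). Of 148 list genes 147 were in the tables, 3 of them under an older symbol. The members and lists were chosen with earlier results of these data known.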

Additional observations from a re-analysis of the deposited data

Results flagged for a closer look

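The comparison of a heterozygous β2SP genotype with an intact one gave opposite directions for Tnfaip3 with and without a labelled SMAD3 mutant allele. The gene was 12.9-fold higher in the double heterozygote than in SMAD3+/-, and 2.27-fold lower in β2SP+/- than in WT. This was not particular to Tnfaip3. Nfkb2, Relb, Nfkbia, Nfkbiz and Tlr2 ran the same opposite ways, with intervals that left out a ratio of 1. In β2SP+/- those genes did not pass the 1.5-fold rule. Each direction rests on 1 library against 1, and the difference between them was not tested.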

How the results depend on the processing

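No counted member ratio changed direction under any scaling tried. Of 440 member ratios under alternative scalings, 414 stayed within the interval of the value reported and 26 moved beyond it. Of 140 list counts 128 stayed within 1.5 times of the value reported and 12 moved. Of these, 10 moved under the rule of 2-fold: target genes to 7 in SMAD3+/-, 0 in β2SP-/- and 7 in β2SP+/-, receptors to 4 in the double heterozygote and 1 in β2SP+/-, adaptors and kinases to 7 in the double heterozygote and 5 in SMAD3-/-, and leukocyte markers to 5 in the double heterozygote, 0 in β2SP-/- and 2 in β2SP+/-. In SMAD3+/- 1 adaptor or kinase was counted with total counts, with or without structural RNAs. The scalings without structural RNAs and over 4 libraries, the between-mutant and list alternatives and the comparison of the double heterozygote with SMAD3-/- were chosen after seeing the data. With DESeq2 size factors or the upper quartile, 0 members were counted in SMAD3+/- against WT. Beyond 2-fold, 0 members were counted in SMAD3+/- and 0 in β2SP+/-, and the counts over all genes against WT were 3473 (in place of 6027) in the double heterozygote, 4852 (7316) in SMAD3-/-, 434 (903) in SMAD3+/-, 47 (157) in β2SP-/- and 97 (271) in β2SP+/-. A minimum of 5 CPM left 97 in β2SP-/-.

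With the interval widened by the dispersion of the allele fit, the members counted against WT were 6 in the double heterozygote, 3 in SMAD3-/-, 0 in SMAD3+/- and 0 in β2SP+/-, and over all genes 1076 in the double heterozygote, 1891 in SMAD3-/-, 97 in SMAD3+/-, 12 in β2SP-/- and 21 in β2SP+/-. Under that interval the double heterozygote had 4 members counted against SMAD3-/-, 5 against SMAD3+/- and 6 against β2SP+/-, and SMAD3-/- had 2 against SMAD3+/-. The share of all genes counted in these pairs of mutants is not given here, so these member counts have no background beside them. The upper quartile shifted the median log2 ratio of all genes by -0.21 in the double heterozygote and -0.19 in SMAD3-/- against WT, and total counts without structural RNAs shifted it by -0.13 in the double heterozygote.

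In the allele fit DESeq2's Wald test called 2049 genes and 1 member for SMAD3. The 4 libraries other than the double heterozygote and SMAD3-/- alone gave 381 genes for SMAD3 and 1 for Sptbn1. Leaving out each library in turn gave 0 to 0 genes for either. No paired analysis was possible because there is 1 library per genotype. The lowest member counts (Tnf, 5 in SMAD3-/-) limit how precisely ratios are known.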

Other observations

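The β2SP-/- library had more transcript of several inflammatory genes than the β2SP+/- library, although the 10 genes above did not pass the rule between them. Of 36 NF-kB target genes 12 were higher and 0 lower, where 0.925% of all genes were higher and 0.378% lower. The median log2 ratio was 0.69 over the list and 0.01 over all genes. Against WT, 0 of these 36 genes were higher and 3 lower in β2SP-/-, with a median log2 ratio of -0.08. In β2SP+/- 0 were higher and 12 lower than in WT, with a median of -0.73. Of all genes 0.648% were higher and 0.412% lower than WT in β2SP-/-, and 0.635% and 1.2% in β2SP+/-. The acute-phase gene Saa3 had 139 CPM in β2SP-/- and 42.0 CPM in β2SP+/-, a ratio of 3.32 (2.90 to 3.80). Its WT level was 104 CPM. Il1b had 44 counts in β2SP-/- and 4 in β2SP+/-, or 6.57 and 0.589 CPM, against 7.61 CPM in WT. The receptor Cd14 was 2.11-fold (1.85 to 2.42) higher, at 103 CPM in β2SP-/- against 48.7 CPM in β2SP+/- and 127 CPM in WT. Of 18 leukocyte markers 3 were higher in β2SP-/- than in β2SP+/- as well. Their part in the result was not tested.

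Marker genes of other cell types are given beside the share of all genes counted against WT, 40.7% in the double heterozygote, 49.4% in SMAD3-/-, 6.1% in SMAD3+/-, 1.06% in β2SP-/- and 1.83% in β2SP+/-. In SMAD3-/- 3 of 7 epithelial markers were higher and 0 lower. These were the keratin genes Krt8, Krt18 and Krt19, the last at 31.1 CPM against 2.30 CPM in WT. The others were not counted and were lower in level. Cdh1 had 1.02 CPM against 2.57 CPM in WT, and Epcam 5 counts against 8. Krt5 and Krt14 had 0 counts, against 3 for Krt5 and 2 for Krt14 in WT. In the same library 9 of 14 fibroblast markers were lower and 1 higher, with Dcn at 55.2 CPM against 1301 CPM in WT. In the double heterozygote 7 of 14 fibroblast markers were higher and 1 lower, with Lum at 1565 CPM against 211 CPM in WT, and 3 of 7 epithelial markers were lower. In SMAD3+/- 3 epithelial markers were higher, Krt14 from 61 counts against 2 in WT, and 3 fibroblast markers were lower. In β2SP-/- and β2SP+/- 0 fibroblast and 0 epithelial markers were counted.

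Of 6 measured endothelial markers 2 were higher and 1 lower in the double heterozygote, where 21.6% of all genes were higher and 19.1% lower. In SMAD3-/- 1 was higher and 3 lower, where 24.2% of all genes were higher and 25.2% lower. In SMAD3+/- 0 were higher and 1 lower, and 0 were counted in β2SP-/- or β2SP+/-. Of 6 measured structural and nuclear RNAs 1 was higher and 5 lower in the double heterozygote, 2 higher and 4 lower in SMAD3-/-, 0 counted in SMAD3+/-, 3 higher in β2SP-/- and 1 higher in β2SP+/-. Malat1 had 335 CPM in the double heterozygote and 38532 CPM in WT, and Rn7sk had 4153 CPM in SMAD3-/- and 23.6 CPM in WT. Leukocyte markers were lower for 2 and higher for 1 of 18 in SMAD3+/- and lower for 2 in β2SP-/-.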
